A study of Mus musculus with 16 samples.

Results

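The autophagy and mitochondrial clearance genes described here are 10 of the 46078 genes counted in each library. They were chosen by symbol: *Ulk1*, *Becn1*, *Map1lc3a*, *Map1lc3b*, *Gabarap*, *Gabarapl1*, *Gabarapl2*, *Sqstm1*, *Optn* and *Bnip3l*. All 10 were found under their own symbol and passed the filter on low counts in every comparison. RNA was sequenced from polychromatic (Poly-E) and orthochromatic (Ortho-E) erythroblasts, successive nucleated stages of red cell formation, sorted by FACS on Ter119 and CD44 from the steady-state bone marrow of *Ypel4*+/+ and *Ypel4*-/- mice. The *Ypel4*-/- mice are homozygous for the tm1a(EUCOMM)Wtsi gene-trap allele of *Ypel4* and are listed with the wild-type *Ypel4*+/+ mice under 1 strain, C57BL/6N-A<tm1Brd> with the *Ypel4* allele (WtsiIeg), with neither age nor sex in the labels. The trap allele is carried in the germline and so is not limited to erythroid cells. Each of the 4 groups held 4 libraries.

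An erythroblast loses its nucleus and then clears its mitochondria and other organelles before it circulates as a red cell. Part of this clearance runs through macroautophagy: a kinase complex and a lipid kinase complex start a double membrane, small proteins of the Atg8 family are bound to it, cargo receptors link the material to be removed to the Atg8 proteins, and the closed vesicle fuses with lysosomes. *Bnip3l* (also called Nix), an outer membrane protein of mitochondria that binds Atg8 proteins, is best known for mitochondrial removal from reticulocytes, and *Ulk1* is needed for it too.

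Promoters are shown for 4 genes because they span the size of the change between the populations described below: *Ulk1*, *Sqstm1* and *Gabarapl1*, with the highest changes in *Ypel4*+/+ cells among the genes whose promoter was at hand, and *Gabarap*, with the lowest. Sequences are from RefSeq (GRCm38.p6) and run 5′ to 3′ on the strand of the gene, from 250 bases before its RefSeq start to 50 bases after it. They were matched for 7 of the 10 genes (*Bnip3l*, *Map1lc3a* and *Becn1* were not). The *Gabarap* window begins at 69991120, whereas the gene as counted starts at 69991143. Most of that window thus lies inside the counted gene. Capitals mark CACCC or its reverse complement GGGTG, the core of the box bound by erythroid Krüppel-like factors.
*Ulk1* promoter (chr5:110810032-110810331, - strand): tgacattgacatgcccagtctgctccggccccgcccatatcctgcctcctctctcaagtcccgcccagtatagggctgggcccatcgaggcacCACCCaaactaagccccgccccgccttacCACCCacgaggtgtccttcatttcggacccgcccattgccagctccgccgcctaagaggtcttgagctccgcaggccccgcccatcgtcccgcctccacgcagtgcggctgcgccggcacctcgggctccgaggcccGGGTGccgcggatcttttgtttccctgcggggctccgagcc
*Sqstm1* promoter (chr11:50210771-50211070, - strand): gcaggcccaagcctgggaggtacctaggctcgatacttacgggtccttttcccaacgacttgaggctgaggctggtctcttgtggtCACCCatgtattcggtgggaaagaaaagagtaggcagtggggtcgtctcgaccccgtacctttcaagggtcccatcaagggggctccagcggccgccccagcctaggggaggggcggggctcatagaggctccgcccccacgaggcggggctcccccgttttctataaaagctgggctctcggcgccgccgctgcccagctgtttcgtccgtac
*Gabarapl1* promoter (chr6:129532942-129533241, + strand): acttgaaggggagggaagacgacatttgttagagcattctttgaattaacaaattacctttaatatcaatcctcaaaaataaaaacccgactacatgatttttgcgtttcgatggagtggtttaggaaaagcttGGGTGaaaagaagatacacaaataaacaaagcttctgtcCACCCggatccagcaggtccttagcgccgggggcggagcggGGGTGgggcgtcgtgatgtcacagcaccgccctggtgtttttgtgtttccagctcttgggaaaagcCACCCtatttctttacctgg
*Gabarap* promoter (chr11:69991120-69991419, + strand): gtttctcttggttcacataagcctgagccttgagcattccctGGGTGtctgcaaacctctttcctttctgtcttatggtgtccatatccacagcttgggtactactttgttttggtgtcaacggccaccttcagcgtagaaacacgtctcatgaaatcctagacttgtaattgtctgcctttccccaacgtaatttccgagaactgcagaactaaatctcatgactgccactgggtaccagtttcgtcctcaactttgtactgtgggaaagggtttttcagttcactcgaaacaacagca
CACCC occurred on either strand in 5 of the 7 promoters, against 57.5% of all 32851 promoters in the same table. *Ulk1* had 3 matches, *Gabarapl1* had 4, and *Sqstm1*, *Gabarap* and *Map1lc3b* had 1 each, whereas *Gabarapl2* and *Optn* had 0. The GATA motif, here GATA with A or T before it and A or G after it on either strand, was in 0 of the 7 windows and in 29.8% of all promoters. The E-box CACGTG, a palindrome, was in 0 of 7 and in 7.15% of all promoters. The *Ulk1* window held 26 CpG dinucleotides and the *Map1lc3b* window 34, while the *Gabarap* window held 7, which is the median of all promoters. The log2 fold changes in *Ypel4*+/+ cells described below were 2.94 for *Gabarapl1* (4 CACCC matches) and 3.27 for *Ulk1* (3 matches). With 1 match they were 2.98 for *Sqstm1*, 2.66 for *Map1lc3b* and 0.79 for *Gabarap*. With 0 matches they were 2.61 for *Gabarapl2* and 1.11 for *Optn*. A link between matches and change was not tested.

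Depth lay between 2670173 and 12451234 counts per library. Levels are given as CPM, the counts scaled to a common library size with TMM (edgeR's trimmed mean, which aligns the bulk of genes between libraries), or as CPM per kb of exon where genes are compared with each other. The scaling weighs on any comparison of the populations. The 10 most abundant genes took 22.1 to 24.3% of the counts in Ortho-E and 11.9 to 13.8% in Poly-E libraries. TMM factors were 0.614 to 0.728 in Ortho-E and 1.45 to 1.64 in Poly-E libraries. How much of the gap between the scalings these 10 genes account for was not tested. In *Ypel4*+/+ cells the median log2 fold change of all 11747 genes tested from Poly-E to Ortho-E was −0.19 with TMM and −1.45 with library totals alone. In *Ypel4*-/- cells the median over 11973 genes was −0.09 and −1.47. Values under both scalings are therefore given for this comparison. All 11 erythroblast markers were detected in every group. *Ypel4* itself was at 490 to 716 CPM in *Ypel4*+/+ and 9.91 to 23.8 CPM in *Ypel4*-/- Poly-E libraries, and at 4416 to 5437 and 174 to 224 CPM in Ortho-E libraries, so that every *Ypel4*-/- library was far below every *Ypel4*+/+ library of its population.

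**Figure D1:**
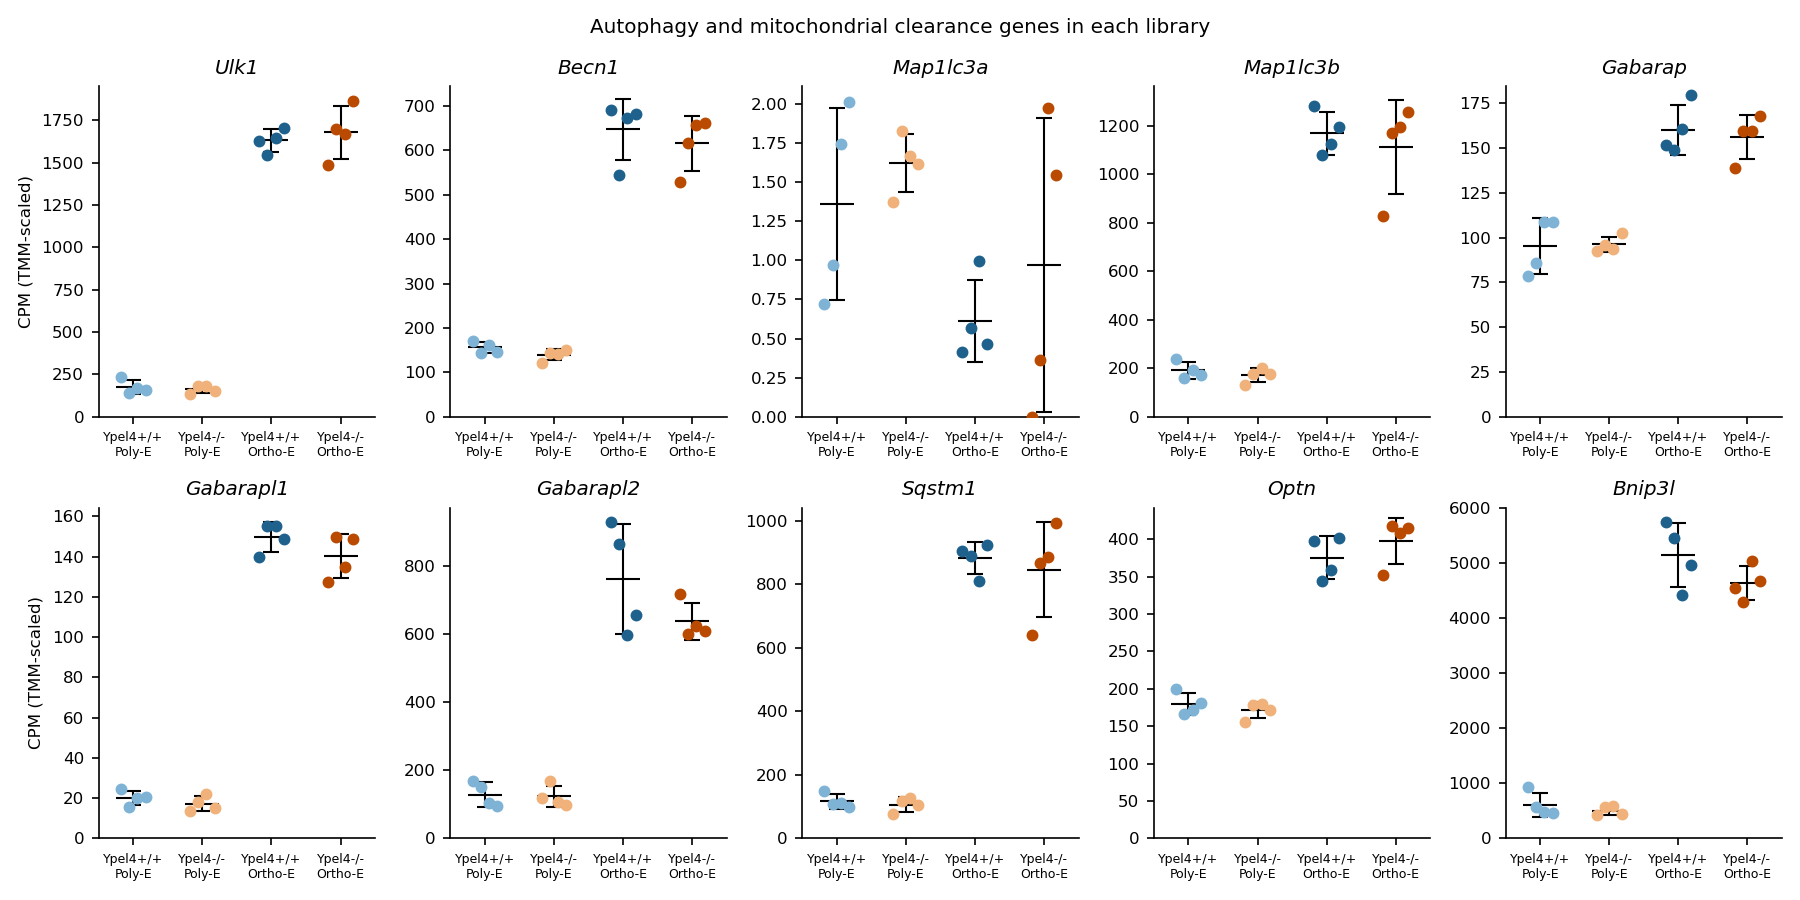
CPM after TMM scaling (vertical axes, linear, from 0, a separate range for each gene) of the 10 genes in the 16 libraries. Points are libraries in order of replicate number from left to right within each group, the horizontal bars are means and the error bars are 1 SD (n = 4). In 9 panels, with this scaling, every Ortho-E point is above every Poly-E point, *Map1lc3a* is near 0 throughout, and the genotypes overlap within each population.

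The first question was how these genes differ between successive stages of the lineage. In *Ypel4*+/+ cells 9 of the 10 rose from Poly-E to Ortho-E and 0 fell, against 26.4% of all genes tested called higher and 32.1% called lower in Ortho-E. In *Ypel4*-/- cells again 9 of 10 rose and 0 fell, against 29.5% called higher and 31.5% called lower. Over the 10 genes the log2 fold change had a median of 2.64 in *Ypel4*+/+ and 2.73 in *Ypel4*-/- cells. For the same 9 genes, all but *Map1lc3a*, every Ortho-E library lay above every Poly-E library in each genotype, which was the case for 22.5% of all genes in *Ypel4*+/+ and 22.9% in *Ypel4*-/- cells. With library totals in place of TMM, 7 of the 10 rose and 2 fell in each genotype, against 10.4% called higher and 60.3% called lower of all genes in *Ypel4*+/+, and 11.2% and 60.9% in *Ypel4*-/- cells. The 7 were *Ulk1*, *Becn1*, *Map1lc3b*, *Gabarapl1*, *Gabarapl2*, *Sqstm1* and *Bnip3l*, and the 2 were *Gabarap* and *Map1lc3a*. Adjusted p-values are those of the quasi-likelihood test in edgeR, corrected by Benjamini-Hochberg over all genes tested. The libraries were made from pools of sorted cells, so that more RNA of a gene per cell and more cells that hold it cannot be told apart.

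*Ulk1* and *Becn1*, which act at the start of autophagy, rose in both genotypes. *Ulk1* (ENSMUSG00000029512, chromosome 5, 110784488 to 110810097 on the − strand of GRCm38), the kinase that sets off vesicle formation, was at 235, 140, 169 and 158 CPM in the *Ypel4*+/+ Poly-E libraries and at 1628, 1545, 1648 and 1704 CPM in the *Ypel4*+/+ Ortho-E libraries. The *Ypel4*-/- libraries had 134, 183, 180 and 152 CPM in Poly-E and 1483, 1696, 1670 and 1865 CPM in Ortho-E libraries. The lowest Ortho-E library of either genotype was thus several times above the highest Poly-E library. The log2 fold change was 3.27 in *Ypel4*+/+ (SE 0.15, adjusted p = 1.07e-15 from edgeR) and 3.56 in *Ypel4*-/- cells (SE 0.13, adjusted p = 2.41e-21), and 1.99 and 2.14 with library totals. Among all genes tested in *Ypel4*+/+ cells the change of *Ulk1* was at percentile 98.2. *Becn1* (chromosome 11, 101285952 to 101302286, − strand), a subunit of the lipid kinase complex, went from 156 ± 13.4 to 647 ± 68.1 CPM in *Ypel4*+/+ (SD, n = 4) and from 140 ± 12.6 to 616 ± 62.0 CPM in *Ypel4*-/- cells (SD, n = 4). Its log2 fold changes of 2.10 (SE 0.13) and 2.32 (SE 0.12) were 0.82 and 0.91 with library totals, past the threshold under both scalings. *Becn1* overlaps *Cntd1* on the other strand, and 33.6% of the 75-base stretches of its transcripts are also in transcripts of *Cntd1*, where the counting left reads out. In the same way 20.5% of *Gabarapl1* is shared with 1700101I11Rik and 14.6% of *Sqstm1* with Mrnip.

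The Atg8 family, the small proteins that are joined to the vesicle membrane, did not move as a block. *Gabarapl1* (chromosome 6, 129533200 to 129542331, + strand) was at 24.3, 15.7, 20.1 and 20.6 CPM in the *Ypel4*+/+ Poly-E group and at 140, 155, 155 and 148 CPM in *Ypel4*+/+ Ortho-E libraries, a log2 fold change of 2.94 (SE 0.14, adjusted p = 1.83e-15 from edgeR). The change was 3.23 in *Ypel4*-/- cells (SE 0.15), and 1.66 and 1.81 with library totals. *Map1lc3b* (chromosome 8, 121590361 to 121598760, + strand), which encodes the LC3 protein most used as an autophagosome marker, rose from 192 ± 34.8 to 1170 ± 88.2 CPM in *Ypel4*+/+ cells (SD, n = 4). Its log2 fold change was 2.66 (SE 0.14) in *Ypel4*+/+ and 2.88 (SE 0.14) in *Ypel4*-/- cells, and 1.38 and 1.46 with library totals. These 2 genes thus kept a clear rise under either scaling.

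*Gabarapl2* (chromosome 8, 111940703 to 111953612, + strand) rose in both genotypes, with a spread inside the *Ypel4*+/+ groups that ran along the replicate numbers. It was at 168, 149, 102 and 94.6 CPM in the *Ypel4*+/+ Poly-E group and at 928, 862, 595 and 654 CPM in *Ypel4*+/+ Ortho-E libraries, so that replicates 1 and 2 were above replicates 3 and 4 in both populations. The same-numbered libraries of a genotype also share a further number in their deposited names, which was read as the mouse. Its *Ypel4*-/- levels were 119, 168, 106 and 97.9 CPM in Poly-E and 717, 601, 622 and 609 CPM in Ortho-E libraries. The log2 fold change was 2.61 (SE 0.21, adjusted p = 1.00e-07 from edgeR) in *Ypel4*+/+ and 2.58 (SE 0.14, adjusted p = 1.89e-16) in *Ypel4*-/- cells, and 1.34 and 1.16 with library totals.

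*Gabarap* (chromosome 11, 69991143 to 69994951, + strand), the family's name-giving member, had the lowest rise of the 9 and changed direction with the scaling. It was at 78.5, 85.8, 108.5 and 108.9 CPM in the *Ypel4*+/+ Poly-E group and at 151, 149, 161 and 179 CPM in *Ypel4*+/+ Ortho-E libraries. The log2 fold change with TMM was 0.79 (SE 0.13, adjusted p = 6.33e-06 from edgeR) in *Ypel4*+/+ and 0.88 (SE 0.12, adjusted p = 1.03e-07) in *Ypel4*-/- cells, higher than in 71.2% and 70.7% of all genes tested. With library totals it was −0.49 (adjusted p = 0.00206 from edgeR) and −0.54 (adjusted p = 7.85e-05), and each Ortho-E library then lay below each Poly-E library. The share of all genes separated in this way was not counted, but 60.3% and 60.9% of all genes were called lower on that scale. *Map1lc3a* (chromosome 2, 155276297 to 155278073, + strand) was hardly present: the *Ypel4*+/+ libraries held 4, 5, 26 and 23 counts in Poly-E cells and 1, 1, 3 and 2 counts in Ortho-E cells. For *Ypel4*-/- mice the counts were 9, 9, 12 and 31 from Poly-E cells and 0, 1, 6 and 8 from Ortho-E cells. Its log2 fold change of −1.19 (SE 0.59) in *Ypel4*+/+ and −0.39 (SE 0.50) in *Ypel4*-/- cells did not pass the test (adjusted p = 0.0887 and 0.523 from edgeR) and passed it with library totals (−2.44, adjusted p = 0.000408, and −1.77, adjusted p = 0.00168).

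**Figure D2:**
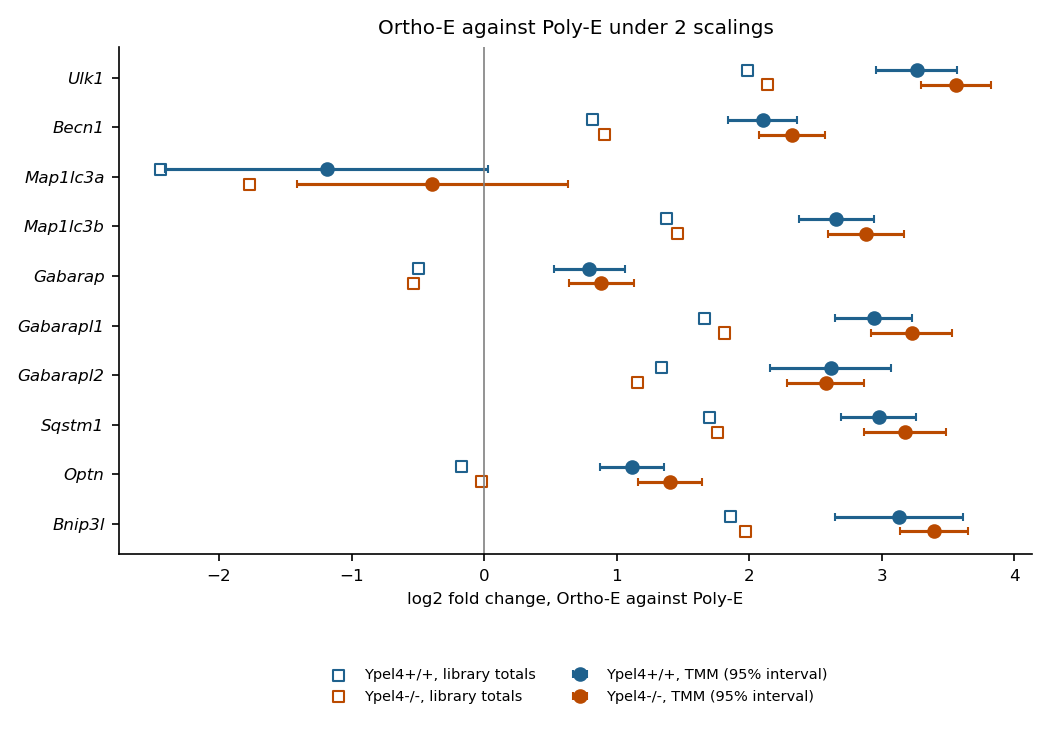
Log2 fold change of the 10 genes from Poly-E to Ortho-E (horizontal axis) in *Ypel4*+/+ (blue) and *Ypel4*-/- (orange) cells. Filled circles with bars are edgeR estimates with TMM and their 95% intervals, and open squares are estimates with library totals. All squares lie to the left of their circles, *Gabarap* crosses 0 from 0.79 to −0.49 in *Ypel4*+/+ cells, and *Optn* moves from 1.11 to −0.17.

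The make-up of the Atg8 family does not depend on the scaling, since it is a ratio within each library. As a share of the family's counts per kb of exon, *Gabarap* went from 36.1 ± 7.87% in Poly-E to 13.4 ± 2.23% in Ortho-E libraries of *Ypel4*+/+ mice (SD, n = 4). In *Ypel4*-/- mice its share went from 37.9 ± 4.13% to 14.4 ± 0.774% (SD, n = 4). The highest Ortho-E share, 15.7%, was below the lowest Poly-E share, 26.5%. *Gabarapl1* took 6.27 to 8.56% of the family in *Ypel4*+/+ Poly-E and 10.8 to 15.1% in *Ypel4*+/+ Ortho-E libraries, and 5.94 to 9.08% and 12.7 to 14.5% in *Ypel4*-/- libraries. The shares of *Map1lc3b* went from 17.5 ± 2.02% to 23.9 ± 2.20% in *Ypel4*+/+ mice without overlap (SD, n = 4), and from 16.5 ± 2.66% to 25.2 ± 3.80% in *Ypel4*-/- mice (SD, n = 4), where the highest Poly-E and the lowest Ortho-E library were both at 19.5%. *Gabarapl2* went from 37.8 ± 8.42% to 49.5 ± 5.68% in *Ypel4*+/+ mice (SD, n = 4), with overlap between 44.0 and 45.3%. In *Ypel4*+/+ Poly-E libraries the order of *Gabarap* and *Gabarapl2* ran along the replicate numbers: *Gabarap* had 26.5 and 32.8% against 44.8 and 45.3% for *Gabarapl2* in replicates 1 and 2, and 41.5 and 43.4% against 31.1 and 29.9% in replicates 3 and 4. Per kb of exon *Gabarapl2* came first in every Ortho-E library. Without division by exon length *Map1lc3b* came first there, with 45.8 to 57.6% against 27.9 to 39.6% for *Gabarapl2*. The family as a whole went from 145 ± 10.9 to 655 ± 66.4 CPM per kb in *Ypel4*+/+ mice with TMM and from 218 ± 10.7 to 418.5 ± 35.9 with library totals (SD, n = 4).

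**Figure D3:**
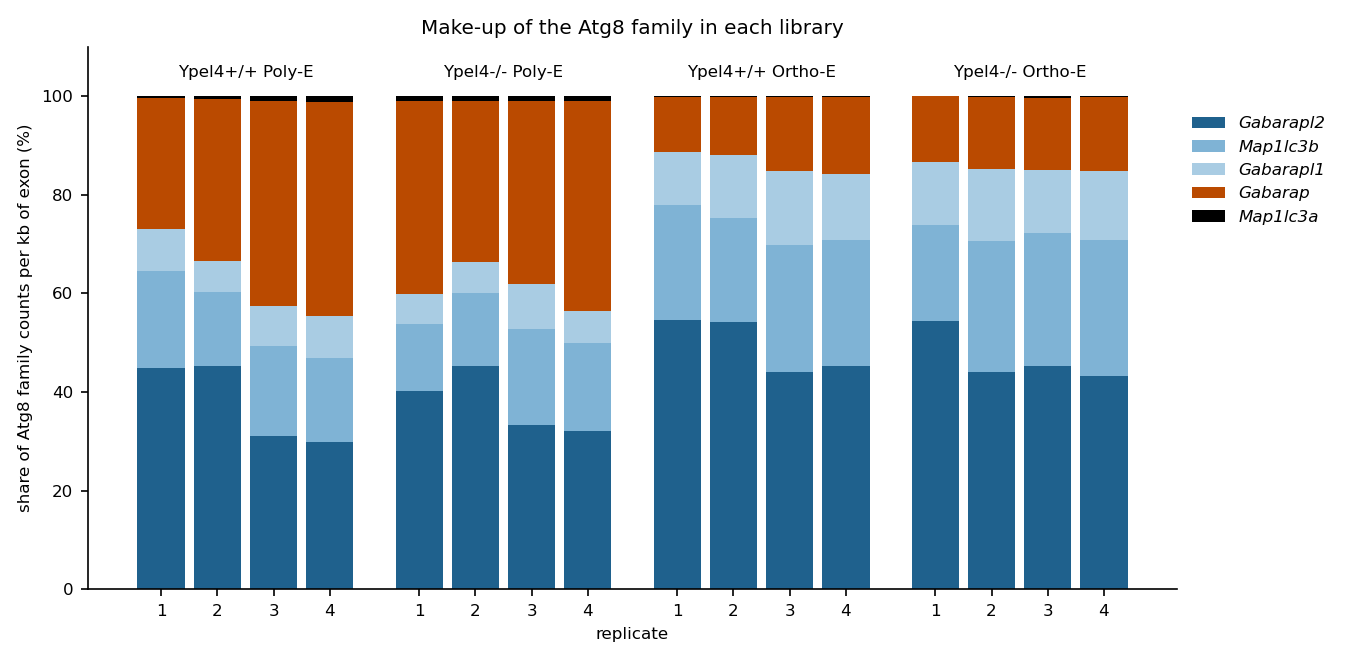
Share of each Atg8 family member in the family's counts per kb of exon (vertical axis, %) in each of the 16 libraries, which are ordered by group and replicate. The *Gabarap* part (orange) takes 26.5 to 43.4% of the Poly-E bars and 11.2 to 15.7% of the Ortho-E bars, and *Map1lc3a* (black) at most 1.25%.

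The cargo receptors rose unequally. *Sqstm1* (chromosome 11, 50199366 to 50210827, − strand), which encodes p62 and ties ubiquitinated cargo to Atg8 proteins, was at 149, 107, 110 and 98.6 CPM in the *Ypel4*+/+ Poly-E group and at 907, 890, 810 and 926 CPM in *Ypel4*+/+ Ortho-E libraries. The *Ypel4*-/- libraries had 75.3, 117, 128 and 105 CPM in Poly-E and 639, 867, 887 and 995 CPM in Ortho-E libraries. The log2 fold change was 2.98 (SE 0.14, adjusted p = 1.29e-15 from edgeR) in *Ypel4*+/+ and 3.18 (SE 0.15) in *Ypel4*-/- cells, and 1.70 and 1.76 with library totals. *Optn* (chromosome 2, 5020642 to 5064051, − strand), optineurin, a receptor that acts in the clearance of damaged mitochondria, was at 200, 166, 172 and 180 CPM in the *Ypel4*+/+ Poly-E group and at 398, 344, 359 and 402 CPM in *Ypel4*+/+ Ortho-E libraries. Its log2 fold change was 1.11 (SE 0.12, adjusted p = 5.13e-09 from edgeR) in *Ypel4*+/+ and 1.401 (SE 0.12) in *Ypel4*-/- cells with TMM, but −0.17 (adjusted p = 0.171) and −0.019 (adjusted p = 0.878) with library totals. On the latter scale each *Ypel4*+/+ Ortho-E library (226 to 249 CPM) was below each *Ypel4*+/+ Poly-E library (255 to 289 CPM), whereas the *Ypel4*-/- libraries overlapped. The share of all genes separated in this way was not counted, but 60.3% of all genes were called lower in *Ypel4*+/+ cells with library totals.

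*Bnip3l* (chromosome 14, 66985239 to 67008877, − strand) had the highest level of the 10 in every group. It was at 927, 566, 470 and 459 CPM in the *Ypel4*+/+ Poly-E group and at 5733, 5450, 4419 and 4958 CPM in *Ypel4*+/+ Ortho-E libraries. In *Ypel4*-/- mice it was at 424, 570, 583 and 436 CPM in Poly-E and at 4542, 4283, 5031 and 4659 CPM in Ortho-E libraries. Replicate 1 of the *Ypel4*+/+ Poly-E group stood above the other 7 Poly-E libraries and remained far below every Ortho-E library. The log2 fold change was 3.13 (SE 0.22, adjusted p = 4.31e-08 from edgeR) in *Ypel4*+/+ and 3.39 (SE 0.13, adjusted p = 4.79e-21) in *Ypel4*-/- cells, and 1.86 and 1.97 with library totals. The percentile of this change among all genes was 97.7 in each genotype. A processed copy, *Bnip3l-ps*, shares 16.9% of the 75-base stretches of *Bnip3l* transcripts, and reads that matched both places were not counted.

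Per kb of exon, the order of the genes changed between the populations below the top position. In *Ypel4*+/+ Poly-E libraries *Bnip3l* led with 157 ± 56.8 CPM per kb, followed by *Gabarapl2* with 55.2 ± 15.3, *Gabarap* with 51.7 ± 8.45 and *Optn* with 47.8 ± 3.95 (SD, n = 4), the last 3 overlapping. In *Ypel4*+/+ Ortho-E libraries *Bnip3l* was at 1332 ± 150 CPM per kb, followed by *Gabarapl2* with 327 ± 69.1, *Sqstm1* with 263 ± 15.2 and *Ulk1* with 251 ± 10.1 (SD, n = 4), again the last 3 overlapping. *Optn*, *Becn1*, *Gabarap* and *Gabarapl1* then lay between 84.8 and 100.03 CPM per kb on average, and no neighbours among them were separated. *Map1lc3a* was last in each group, at 0.518 to 1.37 CPM per kb on average. The *Ypel4*-/- libraries had the same gene first and last, and *Gabarapl2* second, in each population.

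The genes whose log2 CPM followed *Bnip3l* most closely across the 16 libraries were *Ogt*, which encodes the enzyme that adds N-acetylglucosamine to cytosolic and nuclear proteins (Pearson's r = 0.999), *Ube2b*, a ubiquitin-conjugating enzyme (r = 0.999), and the gene model *Gm10603* (r = 0.999), out of 5278 genes averaging 50 or more counts per library. Of the other members, r with *Bnip3l* was 0.993 for *Ulk1*, 0.993 for *Sqstm1* and 0.894 for *Gabarap*. These libraries share their population, which sets most of the spread, and *Ulk1* was only number 196 of the 5278 genes.

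The wider autophagy list held 73 genes in 10 role classes, the 10 genes included. Outside the 10, 59 genes were tested in *Ypel4*+/+ cells, of which 30 rose and 8 fell from Poly-E to Ortho-E, where 26.4% of all genes were called higher and 32.1% lower. The median was 0.76 on the log2 scale, against −0.19 for all genes. In *Ypel4*-/- cells 33 of 60 rose and 9 fell, against 29.5% and 31.5% of all genes, and the median was 0.79, against −0.09. With library totals 21 of the 59 were called higher and 30 lower in *Ypel4*+/+ cells, against 10.4% and 60.3% of all genes, and 19 of the 60 higher and 30 lower in *Ypel4*-/- cells, against 11.2% and 60.9%. The medians were then −0.52 and −0.61, against −1.45 and −1.47 for all genes. The class medians in *Ypel4*+/+ cells, with the 10 genes in their classes, are given with TMM and then with library totals. They were 2.61 and 1.34 for the 5 Atg8 genes, 2.40 and 1.12 for 7 cargo receptors, 1.96 and 0.68 for the 5 genes of the ULK1 complex and 1.52 and 0.24 for 7 genes of lipid transfer. Lysosome proteins had 1.01 and −0.27, mitophagy receptors 0.72 and −0.56, and transcription and kinase regulators 0.30 and −0.99. The lowest were 0.15 and −1.13 for 8 genes of Atg8 conjugation, 0.13 and −1.16 for 9 genes of lysosome fusion and 0.09 and −1.20 for 8 genes of the phagophore lipid kinase complex and its regulators. Differences between classes were not tested.

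**Figure D4:**
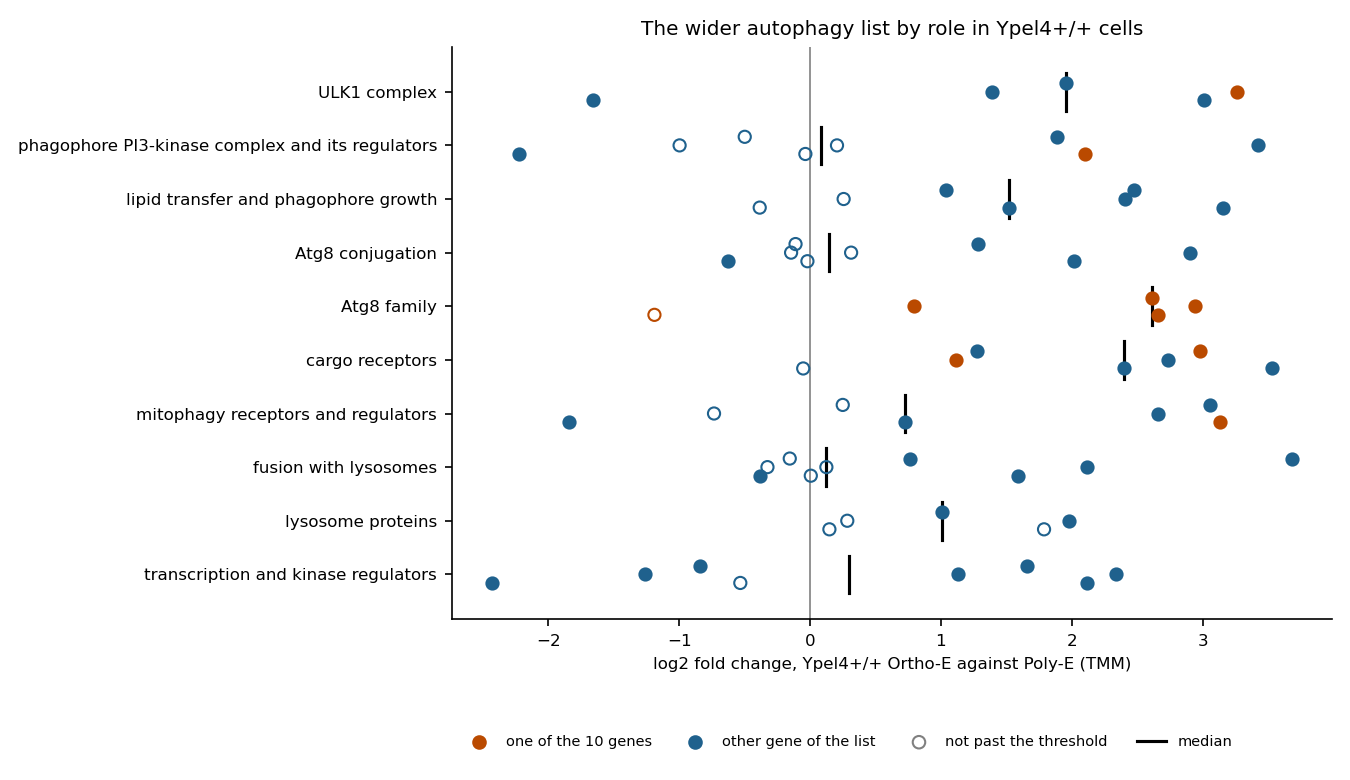
Log2 fold change from Poly-E to Ortho-E with TMM in *Ypel4*+/+ cells (horizontal axis) for the 69 tested genes of the wider autophagy list by role class. Filled points passed the test, orange points are the 10 genes and black bars are class medians. The bars of the ULK1 complex, the Atg8 family and the cargo receptors lie between 1.96 and 2.61, and each class but the lysosome proteins also holds points at or left of 0.

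Within the ULK1 complex, *Rb1cc1*, the scaffold also called FIP200, rose by a log2 fold change of 3.01 (SE 0.15) and *Atg13* by 1.96 (SE 0.14) in *Ypel4*+/+ cells, both past the threshold with library totals too. *Ulk2*, the kinase closest to *Ulk1*, went the other way, from 9.67 ± 1.15 to 2.72 ± 1.20 CPM (SD, n = 4, log2 fold change −1.66, adjusted p = 1.02e-05 from edgeR). *Atg101* was called higher with TMM (1.39) but not with library totals (0.11, adjusted p = 0.684). In the lipid kinase complex, *Atg14*, the subunit that directs it to autophagy, rose from 18.7 ± 3.02 to 193 ± 14.2 CPM (SD, n = 4, log2 fold change 3.42), whereas *Uvrag*, the subunit of the endosomal complex, fell from 3.78 ± 1.26 to 0.977 ± 0.892 CPM (SD, n = 4, log2 fold change −2.22, adjusted p = 0.000357 from edgeR). *Ambra1*, a *Becn1* partner, rose by 1.89 and *Rubcn*, an inhibitor of the complex, was not called with TMM (−0.996, adjusted p = 0.160) but called lower with library totals (−2.24, adjusted p = 0.00111). The change of *Ulk2*, *Uvrag*, *Atg14*, *Rb1cc1*, *Atg13* and *Ambra1* had the same direction and passed the test in *Ypel4*-/- cells and under both scalings.

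Among the genes that supply membrane to the vesicle, *Wdr45* (3.15), which binds its lipids, and *Atg9a* (2.48), a lipid scramblase, rose in *Ypel4*+/+ cells, while *Wipi1* (0.26, adjusted p = 0.0762) and *Wdr45b* (−0.38, adjusted p = 0.0864) were not called there with TMM. With library totals both were called lower (−1.03 and −1.67), and with DESeq2 size factors *Wipi1* was called higher (0.39, adjusted p = 0.0067). Of the machinery that conjugates Atg8 proteins, the protease *Atg4a* rose from 151 ± 25.3 to 1095 ± 54.0 CPM (SD, n = 4, log2 fold change 2.91), and its relative *Atg4b* fell from 132 ± 13.4 to 83.2 ± 9.22 CPM (SD, n = 4, log2 fold change −0.63, adjusted p = 0.000126 from edgeR). *Atg12*, a ubiquitin-like protein of the conjugation reaction, rose by 2.01, and the conjugating enzyme *Atg3* held 29 to 128 counts per group and was not called with TMM (−0.14) but called lower with library totals (−1.42). The rises of *Wdr45*, *Atg9a*, *Atg4a* and *Atg12* and the fall of *Atg4b* were called in both genotypes and under both scalings.

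Other cargo receptors rose too. *Calcoco1*, a receptor for the endoplasmic reticulum and Golgi, rose from 67.7 ± 18.7 to 755 ± 150 CPM (SD, n = 4, log2 fold change 3.53), and *Tax1bp1*, a ubiquitin-binding receptor, rose by 2.74 in *Ypel4*+/+ cells. *Tbk1*, the kinase that phosphorylates *Optn* and *Sqstm1*, rose by 1.28 with TMM and was not called with library totals (−0.01, adjusted p = 0.952), and *Tollip* was not called with TMM (−0.05, and −1.34, called lower, with library totals). Besides *Bnip3l*, *Pink1*, the kinase that marks damaged mitochondria, rose in *Ypel4*+/+ cells from 33.1 to 98.5 CPM in Poly-E to 289 to 744 CPM in Ortho-E libraries (log2 fold change 3.05, SE 0.45, adjusted p = 0.00105 from edgeR). The gene of its partner parkin, listed as *Park2*, had 12 counts over the 4 Poly-E and 24 over the 4 Ortho-E libraries (log2 fold change 2.66, SE 0.57, called with TMM in both genotypes and with library totals in *Ypel4*+/+ cells alone). *Phb2*, a prohibitin of the inner mitochondrial membrane, fell from 21.2 ± 3.38 to 5.54 ± 1.45 CPM (SD, n = 4, log2 fold change −1.84, adjusted p = 3.23e-08 from edgeR), and *Fundc1*, another receptor on the outer membrane, was not called in *Ypel4*+/+ cells with TMM (−0.73, with 7 counts in Ortho-E) but called lower with library totals (−1.98). *Bnip3*, the closest relative of *Bnip3l*, was under the minimum of 10 counts in *Ypel4*+/+ cells and in both genotype comparisons, and was not tested there. The interaction over all 16 libraries was tested for all 9 genes of its class and called for 0.

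Toward the lysosome, *Plekhm1*, an adaptor that binds Atg8 proteins and *Rab7*, rose from 23.3 ± 6.65 to 287 ± 17.99 CPM (SD, n = 4, log2 fold change 3.68, adjusted p = 1.55e-15 from edgeR), and the SNARE *Snap29* rose by 2.12. The SNARE *Stx17* was not called with TMM (−0.33, adjusted p = 0.0645) but called lower with library totals (−1.61). *Vamp8*, another SNARE, was called lower with TMM (−0.38, adjusted p = 0.0232) and with library totals (−1.67), but not with DESeq2 size factors (−0.25, adjusted p = 0.117). The protease *Ctsb* rose from 938 ± 106 to 3578 ± 355 CPM (SD, n = 4, log2 fold change 1.98), while the membrane proteins *Lamp1* (0.28, adjusted p = 0.0504) and *Lamp2* (0.15, adjusted p = 0.602) were not called in *Ypel4*+/+ cells with TMM, nor was *Ctsl* (1.79, with at most 8 counts per group). With library totals *Lamp1* (−0.998) and *Lamp2* (−1.14) were called lower, and with DESeq2 size factors *Lamp1* was called higher (0.42, adjusted p = 0.00315). Among regulators, *Foxo3*, a transcription factor of autophagy genes in erythroblasts, rose by 2.12 from 575 ± 41.1 to 2407 ± 176 CPM (SD, n = 4), and *Trp53inp1*, which binds Atg8 proteins, rose by 2.34. *Mtor*, the kinase that restrains *Ulk1*, fell from 36.0 ± 5.05 to 14.4 ± 1.42 CPM (SD, n = 4, log2 fold change −1.26, adjusted p = 2.38e-07 from edgeR). *Tfeb*, a regulator of lysosome genes, held 41 counts in Poly-E and 2 in Ortho-E (log2 fold change −2.43, adjusted p = 0.0336) and was not called in *Ypel4*-/- cells (−0.85, adjusted p = 0.154) with TMM, but called lower with library totals in both (−3.60 and −2.22).

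Summed levels of markers of other cells also differed between the populations, some with overlap. The summed level of 8 macrophage markers was 2.32 to 5.22 CPM in Poly-E and 6.24 to 11.3 CPM in Ortho-E libraries, with all 8 detected, and 7 markers of neutrophils and their precursors summed to 0.887 to 4.05 and 1.14 to 15.9 CPM, with *Ly6g* at 0 in every group and *Elane* at 0 in all but *Ypel4*+/+ Poly-E. The 4 B and T cell markers summed to 8.52 to 21.3 CPM in Poly-E and 14.8 to 32.3 CPM in Ortho-E, with *Cd3e* at 0, and in Ortho-E cells the *Ypel4*-/- libraries (23.9 to 32.3 CPM) were above the *Ypel4*+/+ libraries (14.8 to 20.02 CPM). Of the 4 megakaryocyte and platelet markers, which summed to 26.7 to 35.6 and 89.7 to 112 CPM, *Pf4* was at 0 in Ortho-E libraries. The higher sum came from *Itga2b*, with means of 20.9 and 95.4 CPM in *Ypel4*+/+ and 17.9 and 91.9 CPM in *Ypel4*-/- cells. *Gp9* was not called in either genotype (adjusted p = 0.816 and 0.942 from edgeR). In *Ypel4*+/+ cells 1 of 6 tested macrophage, 1 of 3 neutrophil and 1 of 3 B and T cell markers were called higher in Ortho-E with TMM. In *Ypel4*-/- cells the counts were 4 of 8, 3 of 4 and 3 of 3. Of all genes 26.4% and 29.5% were called higher. The part of the other cell types in the values of the autophagy genes was not tested.

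The second question was whether the lack of *Ypel4* changed these genes. In Poly-E cells 0 of the 10 were called between *Ypel4*-/- and *Ypel4*+/+ libraries by edgeR, 0 reached an unadjusted p under 0.05, and 0 were called by DESeq2, against 0.00807% of 12395 genes called by edgeR, which was *Ypel4* alone. In Ortho-E cells the counts were again 0, 0 and 0 of 10, against 0.0285% of 10521 genes called. An unadjusted p under 0.05 was rare among all genes too: 271 of the 12395 tested for Poly-E cells reached it, and 387 of the 10521 tested for Ortho-E cells did. A count of 0 of 10 at that level therefore does not set these genes apart from the rest. Of the wider list 0 of 70 genes were called for Poly-E and 0 of 69 for Ortho-E cells, with 0 and 1 at an unadjusted p under 0.05. The 1 gene was *Rubcn*, which in Ortho-E cells had 8 counts in all *Ypel4*+/+ and 34 in all *Ypel4*-/- libraries (log2 fold change 1.80, SE 0.62, unadjusted p = 0.00691, adjusted p = 0.996 from edgeR).

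**Figure D5:**
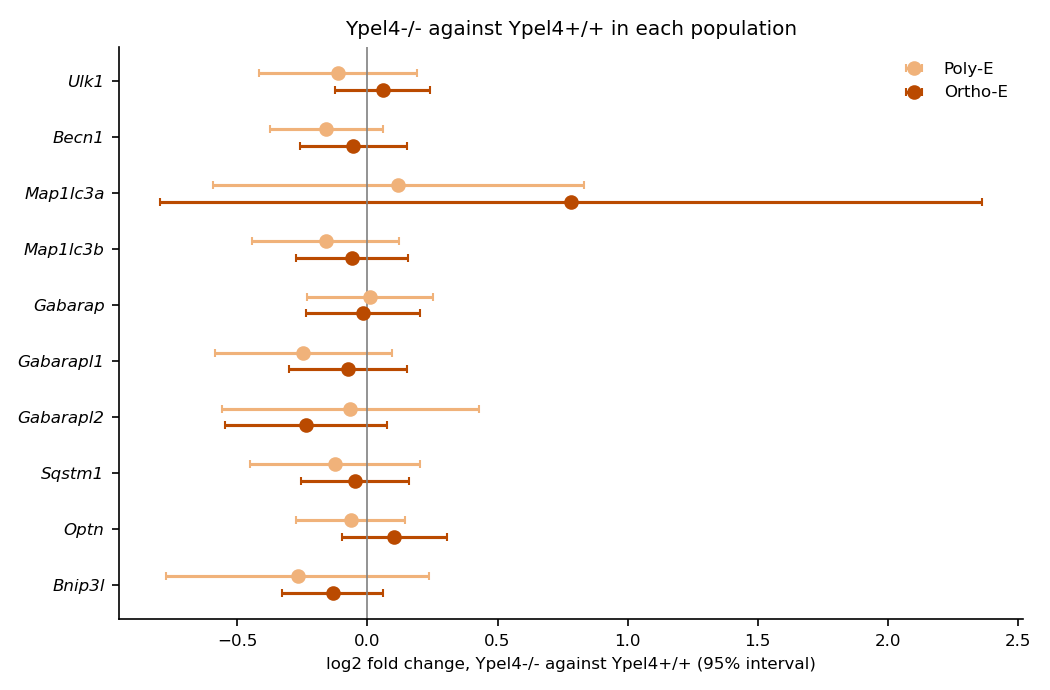
Log2 fold change of the 10 genes between *Ypel4*-/- and *Ypel4*+/+ libraries (horizontal axis) in Poly-E (light) and Ortho-E (dark) cells, with 95% intervals from edgeR (TMM, n = 4 against 4). Every interval includes 0, and those of *Map1lc3a*, the gene with the fewest counts, are the widest, up to 2.36 in Ortho-E.

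The intervals show what size of change these libraries leave possible. *Bnip3l* differed by a log2 fold change of −0.27 in Poly-E (95% interval −0.77 to 0.24) and of −0.13 in Ortho-E (−0.33 to 0.06). Leaving out 1 library at a time moved the Poly-E value between −0.39 and 0.015, the latter without replicate 1 of *Ypel4*+/+. *Ulk1* differed by −0.11 (−0.42 to 0.19) and 0.06 (−0.12 to 0.24). *Map1lc3b* differed by −0.16 (−0.44 to 0.12) and −0.06 (−0.27 to 0.16). For these 3 genes a change in the Ortho-E cells of the size seen between the populations was thus far outside the interval. *Gabarapl2* had the lowest value in Ortho-E, −0.23 (−0.55 to 0.08), where the *Ypel4*-/- libraries at 601 to 717 CPM overlapped the *Ypel4*+/+ libraries at 595 to 928 CPM. *Sqstm1* differed by −0.13 (−0.45 to 0.20) in Poly-E and −0.05 (−0.25 to 0.16) in Ortho-E, and *Becn1* by −0.16 (−0.37 to 0.06) and −0.05 (−0.26 to 0.15). *Gabarap*, at 0.01 (−0.23 to 0.25) and −0.02 (−0.23 to 0.20), and *Gabarapl1*, at −0.25 (−0.58 to 0.09) and −0.08 (−0.30 to 0.15), were likewise not called. *Map1lc3a* differed by 0.12 (−0.59 to 0.83) and 0.78 (−0.80 to 2.36), so that little could be read from it at this depth.

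*Optn* was the 1 gene of the 10 whose genotypes did not overlap under a scaling. With library totals the *Ypel4*-/- Ortho-E libraries held 256, 284, 258 and 260 CPM and the *Ypel4*+/+ Ortho-E libraries 244, 226, 240 and 249 CPM. The two-sided p of an exact permutation test was 0.0286, which 4 against 4 libraries cannot go below, and it was not adjusted for the 10 genes and both populations. Groups without overlap always give this p, so that it adds nothing to the separation for which *Optn* was picked. The share of all genes whose genotypes were separated in this way was not counted. With TMM the groups overlapped, at 352 to 417 and 344 to 402 CPM, and the log2 fold change was 0.10 (95% interval −0.10 to 0.31). The adjusted p from edgeR was 0.998 with library totals and 0.996 with TMM.

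The last question was whether the step from Poly-E to Ortho-E differed between the genotypes. The interaction of genotype and population was called for 0 of the 10 genes and, among all 13318 genes tested, for 0%, while 0 of the 10 reached an unadjusted p under 0.05 (364 of all genes did), and 0 were called by DESeq2. The interaction ran from −0.19 for *Gabarapl2* (95% interval −0.77 to 0.39) to 0.71 for *Map1lc3a* (−0.92 to 2.34) on the log2 scale. *Bnip3l* was at 0.12 (−0.40 to 0.63) and *Ulk1* at 0.16 (−0.22 to 0.53), so that a rise from Poly-E to Ortho-E was measured in each genotype and a difference between the rises was not detectable. Of the wider list 0 of 71 genes were called, with *Rubcn* alone at an unadjusted p under 0.05 (unadjusted p = 0.0295).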

How the data were processed

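Counts per gene were deposited by the authors for 16 libraries, 4 in each of the 4 groups named in the sample titles, and are whole numbers of read pairs, neither normalized nor strand-specific. The authors aligned to GRCm38 in the nf-core/rnaseq pipeline and counted exons per gene with featureCounts 1.6.4, which left out reads with several places or genes. No library was a copy of another, and all 16 were used. The 10 genes and the wider list were chosen with earlier results of these data known.

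Groups were compared with edgeR 4.0.16 under R 4.3.3 (TMM, robust quasi-likelihood fits) on all genes holding 10 or more counts over the libraries of a comparison. P-values were adjusted by Benjamini-Hochberg, and genes under 0.05 were called. The interaction used all 16 libraries and the other comparisons 8. Standard errors and 95% intervals are from the same fits, and single genes were permuted on log2 of CPM plus 0.5. Genes of the wider list were named by rule: the 2 highest and 2 lowest of each class in the *Ypel4*+/+ comparison of populations, those called between genotypes, and the 3 genes most like *Bnip3l*. Others named (*Bnip3*, *Optn* under library totals) were chosen after their values were seen.

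Alternatives were DESeq2 1.42.0, its size factors, library totals, other filters on low counts, globin genes left out, all 16 libraries in 1 fit, the replicate number as a block and each library left out in turn. Replicates 1 and 2 alone and 3 and 4 alone were added after seeing the data. Same-numbered Poly-E and Ortho-E libraries of a genotype were read as coming from the same mouse, from a number shared in their deposited names, although no label states it. The main fits did not use this pairing and treated all libraries as independent, so that their p-values measure the spread between these libraries. The pairing entered in the block fits alone. Deviations of same-numbered libraries from their group means correlated at 0.302 to 0.470 in *Ypel4*+/+ and 0.0621 to 0.396 in *Ypel4*-/- mice over 6710 genes. Libraries of different numbers reached at most 0.326 and 0.213. Between genotypes the correlations were 0.188 to 0.551 in Poly-E and −0.08 to 0.222 in Ortho-E, and different numbers reached 0.514 and 0.184. No label ties same-numbered libraries of different genotypes to each other. Depth limits *Map1lc3a* in particular, with 141 counts over all libraries, where other members had 4967 to 157763. Each fit was tested on simulated data, with 100 genes changed 2-fold and 100 changed 4-fold. Of the edgeR calls on these simulated data, 5.07 to 9.22% were false in the comparisons of groups and 10.9% in the interaction, above the threshold used for calls. In the measured libraries far more genes were called between the populations, 6871 in *Ypel4*+/+ and 7305 in *Ypel4*-/- cells. The share of false calls with so many genes changed was not tested. Of the genes changed 2-fold, edgeR recovered 42 to 61% in the comparisons of groups and 28% in the interaction. For 4-fold changes the shares were 74 to 86% and 54%. Among changed genes averaging 50 or more simulated counts per library, 2-fold changes were recovered for 83.7 to 100% and 67.5%. For 4-fold changes of such genes the shares were 100% and 93.2%.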

Additional observations from a re-analysis of the deposited data

Results flagged for a closer look

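Each of the 10 genes was checked in each group of 4 libraries for 1 library far from the other 3 (Dixon's test at the 95% level), and 2 of the 40 groups stood out. Independent checks would flag 1 in 20 by chance, but these checks share their libraries and are not independent. *Becn1* was low in replicate 2 of *Ypel4*+/+ Ortho-E, at 545 CPM, where the other 3 libraries were at 671 to 690 CPM. *Optn* was low in replicate 1 of *Ypel4*-/- Ortho-E, at 352 CPM, where the other 3 were at 408 to 417 CPM. That library had the highest TMM factor of its group (0.728, against 0.626 to 0.680). With library totals *Optn* was at 256 CPM there and at 258 to 284 CPM in the other 3. Without these libraries the calls of both genes stayed as they were.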

How the results depend on the processing

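In each alternative that gave a value, other than library totals, and with each library left out in turn, each of the 10 genes kept its side of the threshold in all 5 comparisons. *Map1lc3a* gave no value under edgeR's own filter for both comparisons of populations and the Ortho-E genotype comparison, nor for the last with replicates 1 and 2 alone. With library totals in place of TMM, *Gabarap* turned to −0.49 in *Ypel4*+/+ and −0.54 in *Ypel4*-/- cells for Ortho-E against Poly-E, *Optn* to −0.17 and −0.019, and *Map1lc3a* passed the threshold. This scaling takes Ortho-E and Poly-E counts to the same total, and which of the 2 scalings comes closer to RNA per cell cannot be told from these files. The number of the 10 genes called stayed between 9 and 9 for both comparisons of populations and between 0 and 0 for the genotype comparisons and the interaction with each library left out. For the wider list it was 46 to 49 in *Ypel4*+/+, 48 to 51 in *Ypel4*-/- cells and 0 to 0 elsewhere. With the replicate number as a block the calls of the 10 genes were the same, 9 in each comparison of populations and 0 in the others, and the wider list had 53 and 53 calls. Over all genes the block moved the calls from 1 to 4 in Poly-E and from 3 to 15 in Ortho-E genotype comparisons, with 0 of the wider list among them. With replicates 1 and 2 alone *Bnip3l* differed between genotypes by −0.59 in Poly-E, and with replicates 3 and 4 alone by 0.13, neither called (adjusted p = 0.812 and 1.000). Most levels per kb and most shares of the Atg8 family moved by over 1 SD with library totals or without division by exon length, 55 of 80 and 19 of 20. Without division by length *Gabarap* still went from 22.2 ± 5.30% to 7.20 ± 1.04% of the family in *Ypel4*+/+ mice (SD, n = 4).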
